A study of Mus musculus with 6 samples.

Results

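Inflammatory chemokines and their receptors were followed in mesenteric lymph nodes of naive mice that lack TNF in B cells or in both T and B cells. The set held 36 genes, 25 ligands and 11 receptors, chosen by name and found on the array through the accession of each probe. Of these, 32 were measured, 21 ligands and all 11 receptors, out of 37049 genes tested. No probe was matched here to Ccl2, Ccl12, Cxcl11 or Cx3cl1.

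Per the labels, 3 arrays held nodes of adult male mice of the strain B-TNF KO, and 3 arrays held nodes of adult mice of the strain TB-TNF KO double. In the second group arrays 1 and 3 were labelled male and array 2 female. The B cell deletion of Tnf was thus common to both groups, and the comparison asks what differs when T cells lack the gene as well. Each array carried RNA pooled from 3 mice, labelled with Cy3, against a Cy5-labelled pool of RNA from mouse cell lines. The strain names give the cell types that lack Tnf, while the promoter that drives each deletion, and the age in weeks, are not given in the sources used here. Other cells of both strains are not named as targeted, and no wild-type node was analysed here.

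Chemokines are small secreted proteins that guide leukocytes through G protein-coupled receptors. The inflammatory members are mostly induced during infection or injury, by TNF, interleukin-1 or interferons among other signals, and recruit neutrophils, monocytes, eosinophils and effector lymphocytes. The homeostatic members, such as CXCL13 and CCL21, instead place lymphocytes within lymph nodes at rest.

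Values below are log2 of the node signal over the reference signal on the same array, and a difference is TB-TNF KO double minus B-TNF KO on that log2 scale. TB-TNF KO double arrays 1 and 2 differed from each other by about as much in the node channel as in the common reference (ratio of the SDs 0.952, against 1.05 to 1.59 for the 14 other pairs of arrays). They were therefore averaged and counted as 1 sample, which left 3 samples against 2. Both also lacked Y-linked signal, although array 1 was labelled male. The Y-linked gene Eif2s3y had log2 ratios of -2.81 and -2.84 there, against 0.59 to 1.83 on the 4 other arrays. Transcripts of the exocrine pancreas varied widely, with a summed intensity over 10 genes of 3092 and 3112 on array 3 of each group and 104220 to 326701 on the others. The day on which the images were read held 1 group each, so day and group cannot be told apart. The defining markers of lymph node were present, with a median log2 ratio over 9 B cell genes of 2.10 to 2.83 and over 9 T cell genes of 2.90 to 3.14. Nothing beyond the labels shows that pools came from separate animals, so p-values measure the spread between these samples only.

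Many of the members lie in clusters of neighbouring genes, while others, such as Xcl1, Cxcl16, Cxcr2 and Ccr6, lie apart from any other member. By the RefSeq order of protein-coding genes, Ccl2, Ccl7, Ccl11, Ccl12, Ccl8 and Ccl1 follow each other on chromosome 11 with no other such gene between them, as do Ccl9, Ccl6, Ccl3 and Ccl4 further along it. Chromosome 11 holds 12 of the 36 members, chromosome 5 holds 8 and chromosome 9 holds 7. The 250 bases before the start of 5 members are shown from RefSeq, build GRCm38.p6, 5′ to 3′ along the gene. Xcl1, Ccl6 and Cxcr2 are among the genes on which the results turn. Cxcl9 and Cxcl10 are interferon-induced near neighbours. Capitals mark matches on either strand to the NF-kB consensus, to the interferon element GAAANNGAAA, to the STAT element TTCNNNGAA or to TATAAA.
Xcl1 (chr1:164935523-164935772, minus strand): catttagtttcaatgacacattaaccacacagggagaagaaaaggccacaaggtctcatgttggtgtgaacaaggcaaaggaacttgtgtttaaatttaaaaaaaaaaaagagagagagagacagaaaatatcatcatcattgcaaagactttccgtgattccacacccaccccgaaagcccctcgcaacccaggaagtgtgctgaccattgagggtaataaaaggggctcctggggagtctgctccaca
Ccl6 (chr11:83593088-83593337, minus strand): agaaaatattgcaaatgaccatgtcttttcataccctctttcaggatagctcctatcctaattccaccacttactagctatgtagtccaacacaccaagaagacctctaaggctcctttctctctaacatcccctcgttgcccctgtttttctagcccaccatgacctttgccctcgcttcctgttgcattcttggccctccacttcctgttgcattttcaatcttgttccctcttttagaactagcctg
Cxcl9 (chr5:92328080-92328329, minus strand): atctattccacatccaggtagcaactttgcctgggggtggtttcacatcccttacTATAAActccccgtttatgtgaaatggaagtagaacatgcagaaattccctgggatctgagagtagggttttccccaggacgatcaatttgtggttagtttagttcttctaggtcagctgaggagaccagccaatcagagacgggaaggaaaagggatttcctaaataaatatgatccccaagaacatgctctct
Cxcl10 (chr5:92348890-92349139, minus strand): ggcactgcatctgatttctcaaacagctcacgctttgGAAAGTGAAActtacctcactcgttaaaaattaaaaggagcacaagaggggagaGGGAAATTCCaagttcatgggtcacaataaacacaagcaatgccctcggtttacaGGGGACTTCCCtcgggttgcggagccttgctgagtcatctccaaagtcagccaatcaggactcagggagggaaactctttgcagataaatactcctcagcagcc
Cxcr2 (chr1:74153744-74153993, plus strand): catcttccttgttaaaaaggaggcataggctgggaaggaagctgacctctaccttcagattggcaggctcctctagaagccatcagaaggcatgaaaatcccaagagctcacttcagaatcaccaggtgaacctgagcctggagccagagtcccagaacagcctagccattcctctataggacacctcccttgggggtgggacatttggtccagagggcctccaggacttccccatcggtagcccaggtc
Cxcl10 held 1 interferon element and 3 overlapping or separate NF-kB matches, Cxcl9 held 1 TATAAA, and Xcl1, Ccl6 and Cxcr2 held none of these letters. Windows were available for 27 of the 36 members, 29 windows in all. An NF-kB match was found in 9 of the 29 windows, against 7.25% of 32851 windows of all genes. The interferon element was found in 2 of them, against 2.98%, the STAT element in 2, against 7.02%, and TATAAA in 7, against 12.4%. A match describes the letters only.

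No member passed an adjusted p under 0.05 in limma with 3 samples against 2, in either direction. Over all genes, 0.0108% were called lower and 0% higher by that rule. At an unadjusted p under 0.05, 8 of the 32 members were lower in TB-TNF KO double nodes, 5 ligands and 3 receptors, against 11.3% of all genes. By the same rule 2 members were higher, 1 ligand and 1 receptor, against 5.03% of all genes. The median difference was -0.02 over the ligands, -0.03 over the receptors and -0.01 over all genes. A difference under 0.2 in size was found for 23 of 32 members (71.9%), a smaller share than the 88.5% of all genes. In these bulk nodes fewer cells of a type and less RNA per cell cannot be told apart.

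**Figure D1:**
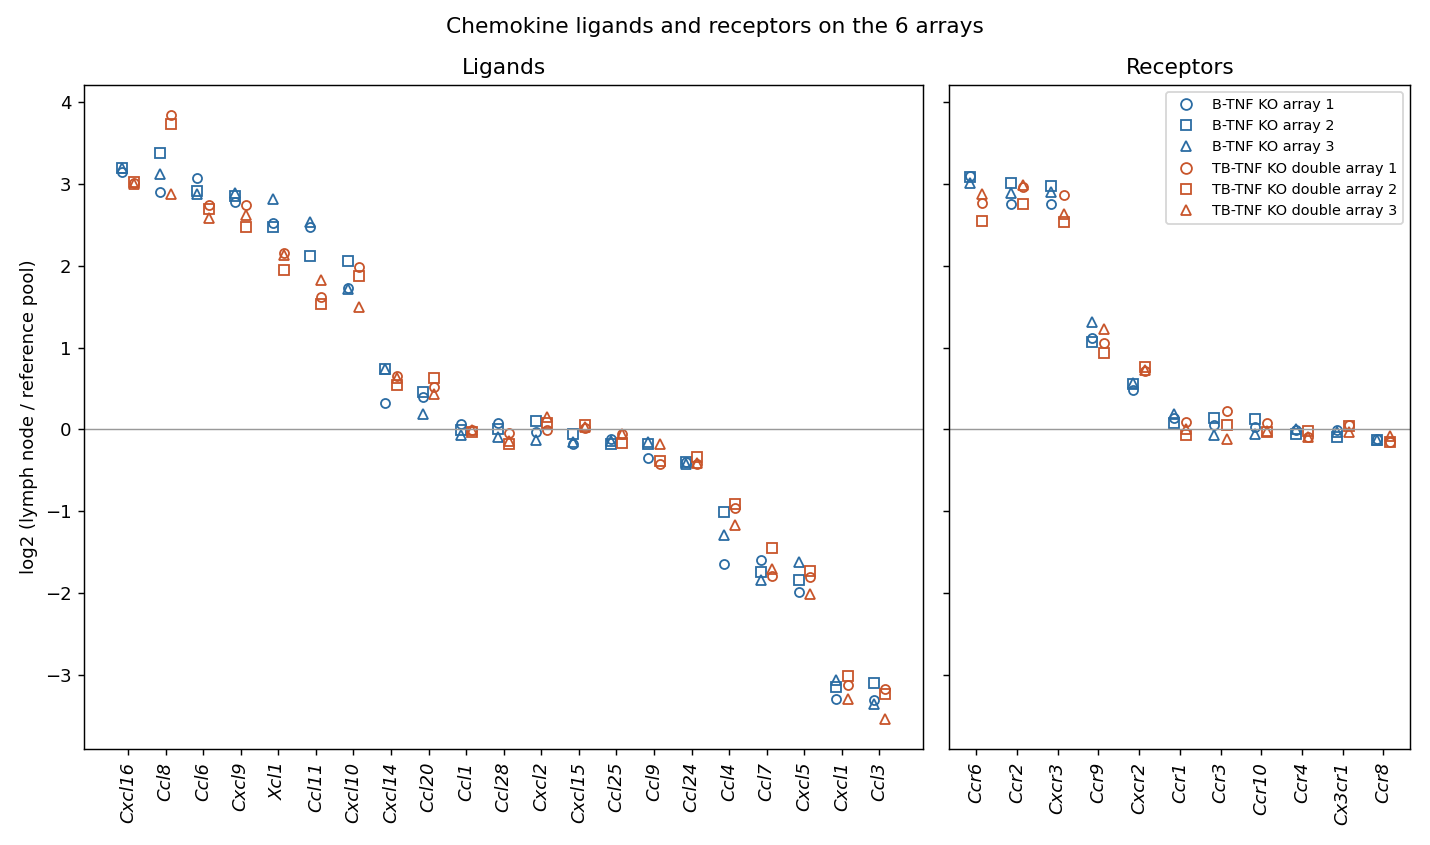
Log2 ratio of lymph node over reference on each of the 6 arrays for 21 ligands (left) and 11 receptors (right), ordered by their mean in B-TNF KO. Each point is 1 array, blue for B-TNF KO and orange for TB-TNF KO double; Ccl11 and Xcl1 show separate groups, while most other genes overlap.

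Among the ligands, Ccl11 had the largest difference in size of all 32 members. It encodes eotaxin, which attracts eosinophils through CCR3. Its log2 ratio was 2.47, 2.12 and 2.53 on the B-TNF KO arrays and 1.62, 1.53 and 1.83 on the TB-TNF KO double arrays. All arrays of the second group lay below all of the first. The difference was -0.67 (SE 0.14), or 1.60-fold, with an adjusted p of 0.0925 in limma. With the replicate number as a block the adjusted p was 0.0112, and with the 6 arrays counted separately it was 0.0212. In the node channel alone the difference was -0.72 (adjusted p 0.0470 in limma). The size depended on the background step, at -0.21 with the processed signals of the scanner software and -0.33 without background subtraction. The unadjusted p of Ccl11 was under 0.05 in 21 of the 22 alternatives run, so not in all of them. The Ccl11 probe has 15% G and C, the lowest of the members, and its reference signal was well above background on 3 of the 6 arrays. Over all genes with probes of at most 35% G and C, 23.1% were lower at an unadjusted p under 0.05, against 4.18% of those between 45% and 55%. With the log ratios corrected on each array for the G and C content of the probe, the Ccl11 difference was -0.62 (SE 0.13; adjusted p 0.0994 in limma).

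Xcl1 encodes lymphotactin, made by activated T cells and natural killer cells, which attracts XCR1-bearing dendritic cells. Its log2 ratio was 2.52, 2.47 and 2.81 in B-TNF KO and 2.16, 1.95 and 2.13 in TB-TNF KO double. The groups did not overlap. The difference was -0.51 (SE 0.11), or 1.42-fold, with an adjusted p of 0.0925 in limma, 0.0166 with the replicate block and 0.0288 with the 6 arrays counted separately. In the node channel alone it was -0.54 (adjusted p 0.0470 in limma). Of 6 natural killer cell genes, Ncr1 differed by -0.34 and Klrd1 by -0.16 at an unadjusted p under 0.05. The others did not pass that rule, with values from -0.13 for Gzma to 0.07 for Gzmb. The summed intensity of that list was 8982 to 9384 in B-TNF KO and 8782 to 10017 in TB-TNF KO double, which overlap. Of 9 T cell genes, Lck and Cd5 differed by -0.22 and -0.17 at an unadjusted p under 0.05, but by -0.03 and 0.06 in the node channel alone. The other T cell genes did not pass that rule, with values from -0.20 for Il7r to 0.03 for Cd3e. The part of natural killer cells or T cells in the Xcl1 value was not tested.

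Ccl6, a CC chemokine of myeloid cells, had log2 ratios of 3.07, 2.92 and 2.88 in B-TNF KO and 2.74, 2.69 and 2.58 in TB-TNF KO double. Every array of the second group was below every array of the first. The difference was -0.31 (SE 0.07; adjusted p 0.123 in limma, 0.0205 with the replicate block and 0.0484 with the 6 arrays counted separately). Its unadjusted p stayed under 0.05 in all 22 alternatives run. Its neighbours on chromosome 11 gave values of -0.06 (SE 0.09) for Ccl9, -0.11 (SE 0.12) for Ccl3 and 0.27 (SE 0.18) for Ccl4, each with overlapping groups. In the node channel alone Ccl6 and Ccl3 both differed by -0.29 (adjusted p 0.154 and 0.137 in limma), Ccl9 by -0.16 and Ccl4 by 0.10. Cxcl16, which binds CXCR6, stood at 3.15, 3.19 and 3.19 in B-TNF KO and at 3.01, 3.02 and 3.00 in TB-TNF KO double. These are narrow, separate groups with a difference of -0.17 (SE 0.04). The adjusted p in limma was 0.132, 0.0599 with the replicate block and 0.0408 with the 6 arrays counted separately. In the node channel alone the Cxcl16 difference was -0.14 (adjusted p 0.356 in limma), and the reference channel differed by -0.23.

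The CXCR3 ligands measured were Cxcl9 and Cxcl10, which were not tested against each other. Cxcl9, induced by interferon gamma, had log2 ratios of 2.78, 2.86 and 2.89 in B-TNF KO and 2.74, 2.47 and 2.62 in TB-TNF KO double. Its groups were separate only by a small margin, with a difference of -0.23 (SE 0.05; adjusted p 0.1005 in limma). In the node channel alone the Cxcl9 difference was 0.02. Cxcl10, which shares the receptor, had log2 ratios of 1.71 to 2.06 in B-TNF KO, overlapped between the groups, and had a difference of -0.12 (SE 0.16). In the node channel alone the Cxcl10 difference was -0.10.

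Cxcl15, a lung chemokine, had a difference of 0.16 (SE 0.05; adjusted p 0.205 in limma) with its brighter probe, at -0.18, -0.06 and -0.16 in B-TNF KO and 0.02, 0.05 and 0.02 in TB-TNF KO double. Its second probe stood at 0.10, 0.01 and 0.20 in B-TNF KO and 0.05, 0.0005 and 0.05 in TB-TNF KO double. That probe differed by -0.07 with overlapping groups, so the probes disagree in sign. Ccl24, an eosinophil chemokine, also had 2 probes, which differed by 0.01 and 0.15 and overlapped between groups with both. The brighter probe stood at -0.40, -0.40 and -0.43 in B-TNF KO and -0.42, -0.34 and -0.42 in TB-TNF KO double. The second stood at -2.67, -2.60 and -2.70 against -2.49, -2.34 and -2.60, so the Ccl24 probes disagree in level.

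The neutrophil and monocyte attractants Cxcl1, Cxcl2, Cxcl5, Ccl7 and Ccl8 had unadjusted p-values above 0.05 in limma on the log ratio. Cxcl1 and Cxcl2, ligands of CXCR2, differed by -0.02 (SE 0.09) and 0.11 (SE 0.08), and Cxcl5 by -0.07 (SE 0.12). In the node channel alone Cxcl1 differed by -0.21 (adjusted p 0.208 in limma). Ccl7, a ligand of CCR2, differed by 0.07 (SE 0.08). Ccl8, a monocyte and T cell attractant, varied most between arrays of 1 group. It stood at 2.90, 3.38 and 3.12 in B-TNF KO and at 3.84, 3.73 and 2.88 in TB-TNF KO double. Array 3 of the second group was the lowest of all 6 and the other 2 were the highest, so the difference of 0.20 had an SE of 0.27. The epithelial ligands Ccl20, Ccl25 and Ccl28 differed by 0.16 (SE 0.09), 0.06 (SE 0.04) and -0.13 (SE 0.06), and Cxcl14 by 0.01 (SE 0.13). Ccl1, a ligand of CCR8, differed by -0.01 (SE 0.05). Several of these signals were dim, so their small differences say little about change. Of all kept probes, 0.787% were dimmer in the node channel than Ccl25, 16.4% than Ccl1, 20.4% than Cxcl1 and 21.0% than Ccl28. The Ccl25 node signal was well above background on 2 arrays of each group.

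Among the receptors, Cxcr2 was the one gene higher in TB-TNF KO double at an unadjusted p under 0.05. It encodes the neutrophil receptor for CXCL1 and CXCL2. Its log2 ratio was 0.48, 0.56 and 0.56 in B-TNF KO and 0.71, 0.77 and 0.73 in TB-TNF KO double, with no overlap. The difference was 0.20 (SE 0.05), with an adjusted p of 0.113 in limma, 0.0387 with the replicate block and 0.0330 with the 6 arrays counted separately. In the node channel alone it was 0.49 (adjusted p 0.0470 in limma), while the reference channel, which holds the same RNA on every array, differed by 0.26. The summed node-channel intensity of 8 neutrophil genes, Cxcr2 among them, was 2752, 2216 and 2954 in B-TNF KO and 3571, 3553 and 3148 in TB-TNF KO double. Of these 8, S100a8 differed by 0.48 and Cxcr2 by 0.20 at an unadjusted p under 0.05, and the other 6 did not pass it, with values from -0.19 for Mpo to 0.35 for Camp. In the reference channel Ltf, another of the 8, differed by 0.51. The part of neutrophil number in the Cxcr2 value was not tested.

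Ccr6, the receptor of CCL20 on B cells and some T cells, had log2 ratios of 3.10, 3.09 and 3.01 in B-TNF KO and 2.77, 2.55 and 2.87 in TB-TNF KO double. Its groups were separate, with a difference of -0.30 (SE 0.07; adjusted p 0.124 in limma), but in the node channel alone it was 0.05. The B cell genes Blk, Cd79a and Fcrl1 differed by -0.51, -0.42 and -0.38 beside it, 3 of 9 in that list at an unadjusted p under 0.05. The summed B cell intensity was 34072 to 34953 in B-TNF KO and 31815 to 39056 in TB-TNF KO double, and the part of B cells in the Ccr6 value was not tested. Cxcr3, found on effector T cells and natural killer cells, stood at 2.75, 2.98 and 2.90 against 2.86, 2.54 and 2.63. Its groups overlapped, with a difference of -0.21 (SE 0.07) that was 0.08 in the node channel alone. Ccr1, a receptor of myeloid cells, stood at 0.14, 0.08 and 0.19 against 0.10, -0.07 and 0.01. It also overlapped, with a difference of -0.12 (SE 0.05) that was -0.27 in the node channel alone.

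The other 7 receptors had unadjusted p-values above 0.05 and overlapping groups. Ccr2, the monocyte receptor, differed by 0.04 (SE 0.09), and Ccr9, the gut-homing receptor, by -0.06 (SE 0.10). Ccr4, Ccr8 and Ccr10, found on subsets of T cells, differed by -0.05, 0.01 and -0.03. Ccr3, the eotaxin receptor, differed by -0.03 (SE 0.10) in the log ratio, and by 0.47 in the node channel and 0.51 in the reference channel. Cx3cr1, the fractalkine receptor, likewise differed by 0.05 in the log ratio, 0.35 in the node channel and 0.37 in the reference. The sign of the log ratio and of the node channel matched for 23 of the 32 members.

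**Figure D2:**
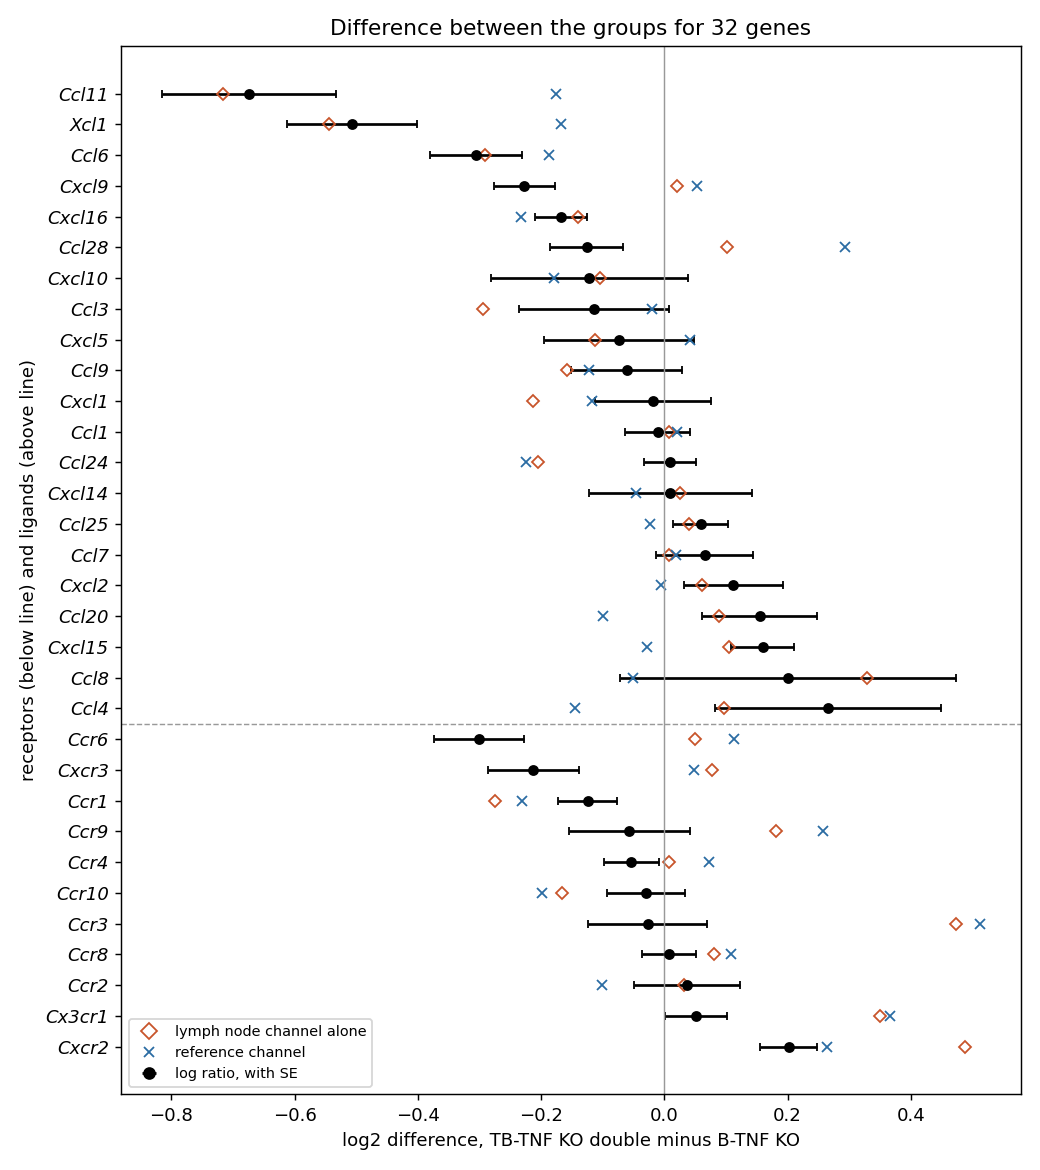
Log2 difference, TB-TNF KO double minus B-TNF KO, for 21 ligands (above the dashed line) and 11 receptors (below it). Black points with bars are log ratios with their SE, orange diamonds the node channel alone and blue crosses the reference channel; Ccl11, at -0.67, is the farthest below 0.

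Counted by separate groups, 6 members lay lower on all 3 TB-TNF KO double arrays than on every B-TNF KO array, against 17.1% of all genes. These were Ccl6, Ccl11, Cxcl9, Cxcl16, Xcl1 and Ccr6. Higher on all 3 were 2 members, Cxcl15 and Cxcr2, against 10.6% of all genes. Both shares, 18.8% and 6.25% of the 32 members, are near those of all genes or below them. With the 6 arrays counted separately, 4 members were lower at an adjusted p under 0.05 in limma, Ccl6, Ccl11, Cxcl16 and Xcl1, against 4.68% of all genes, and Cxcr2 was higher, against 1.45%. With the replicate block, 3 were lower, Ccl6, Ccl11 and Xcl1, against 6.48%, and Cxcr2 was higher, against 1.84%. In the node channel alone, Ccl11 and Xcl1 were lower by that rule, against 0.775%, and Cxcr2 was higher, against 0.683%. If arrays 1 and 2 of the second group held 1 RNA, the fits with 6 arrays count it as 2 samples and their p-values are too small.

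**Figure D3:**
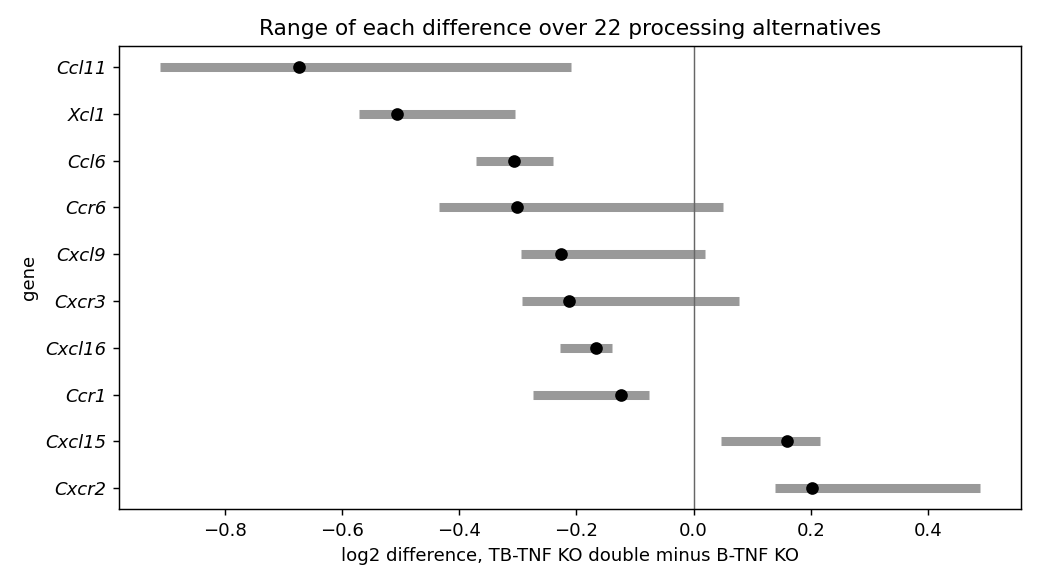
Log2 difference of the 10 members with an unadjusted p under 0.05 (black points) and its lowest to highest value over 22 alternatives of the processing (grey bars). The bars of Cxcl9, Cxcr3 and Ccr6 cross 0 and that of Ccl11 runs from -0.91 to -0.21.

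Other genes of the chemokine system were counted by the same rule, an unadjusted p under 0.05, which 11.3% of all genes met with lower values and 5.03% with higher ones. Of 8 homeostatic genes tested, Cxcl13, which draws B cells into follicles, passed the test with a difference of -1.56 (SE 0.09; adjusted p 0.0257 in limma). Cxcl12 differed by -0.37 and Ccr7 by -0.22 at an unadjusted p under 0.05. Taken alone, the node channel gave -0.37 for Cxcl12 but 0.11 for Ccr7. Ccl21a and Ccl21b differed by 0.53 and 0.65, but both were saturated on all 6 arrays. Of 15 other chemokines and receptors, 6 had lower values and 0 had higher ones at an unadjusted p under 0.05. Among them, Ccl22, a dendritic cell ligand of CCR4, differed by -0.68, the scavenger receptors Ackr4 and Ackr2 by -0.58 and -0.29, Cxcr6 by -0.21 and Ccrl2 by -0.18. The node channel alone gave -0.86, -0.35 and -0.14 for Ccl22, Ackr4 and Ccrl2, but 0.01 and 0.04 for Ackr2 and Cxcr6. The median of that list was -0.18.

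Of 26 genes that carry signals from chemokine receptors, 11 had lower values and 0 had higher ones at an unadjusted p under 0.05, against 11.3% and 5.03% of all genes, with a list median of -0.12. They were Arrb2, Rap1a, Rgs2, Rhoa, Rock1, Cdc42, Dock2, Grk5, Ptk2b, Rgs1 and Vav1, with differences from -0.40 for Rgs2 to -0.13 for Rgs1. The first 5 of these passed an adjusted p under 0.05 in limma with the 6 arrays counted separately. Of 20 cytokines that induce chemokines and their transducers, 5 had an unadjusted p under 0.05 with lower values and 1 with a higher value. Tnf, the targeted gene, differed by -1.09 (SE 0.10; adjusted p 0.0529 in limma). Il1b differed by -0.27, Relb by -0.23, Ifngr1 by -0.22 and Tnfrsf1a by -0.17, and Il4 by 0.13.

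**Figure D4:**
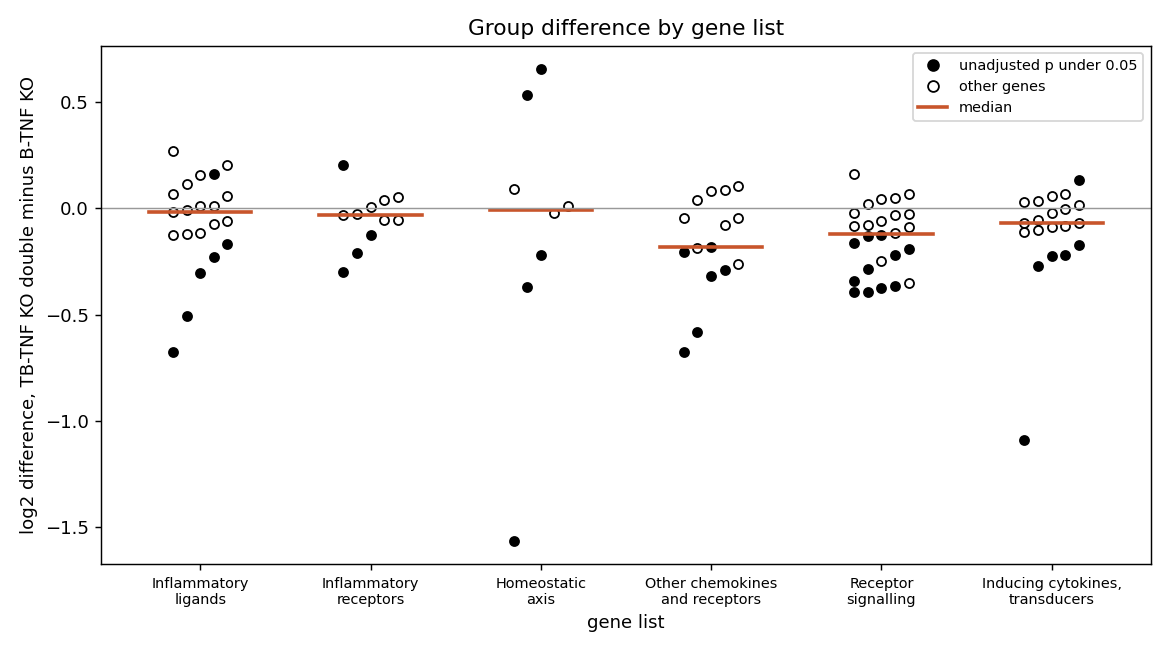
Log2 difference, TB-TNF KO double minus B-TNF KO, of each gene tested in 6 lists of the chemokine system; filled points have an unadjusted p under 0.05 and orange lines are medians. The medians of inflammatory ligands and receptors are -0.02 and -0.03, and Cxcl13, at -1.56, is the lowest point.

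The eosinophil, basophil and mast cell genes, set beside Ccl11 and Ccr3, had a summed intensity over 10 genes of 2947 to 3172 in B-TNF KO and 2952 to 3148 in TB-TNF KO double. Of these, Siglecf differed by -0.21 and Kit by -0.18 at an unadjusted p under 0.05. Their node channel alone gave 0.09 and -0.02. The other genes of the list did not pass that rule, with values from -0.20 for Il5ra to 0.07 for Prss34. Of 9 fibroblast genes, another source of Ccl11, 4 were lower and 1 higher by that rule, against 11.3% and 5.03% of all genes. Col14a1, Lum, Pdgfra and Dcn differed by -0.61, -0.43, -0.20 and -0.13, and Fbln2 by 0.35. The node channel alone gave -0.12, -0.11, -0.34, -0.16 and 0.23. The summed intensity of the 9 fibroblast genes was 27289 to 30829 in B-TNF KO and 26056 to 26628 in TB-TNF KO double, with no overlap. The part of fibroblasts in the Ccl11 value was not tested. Of 9 macrophage and monocyte genes, set beside Ccl6, 2 were lower and 0 higher by that rule.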

How the data were processed

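RNA was measured on 6 two-colour Agilent arrays. Images were read by the authors with Agilent Feature Extraction A.7.5.1, per the file headers, and the deposited scanner files give spot and background intensity for both channels. A deposited value table on a log10 scale served as an alternative. Its columns had medians of 2.98 to 2.99 and tracked each array's processed Cy3 signal (r over probes, which are not independent, 0.993 to 0.996), and its scaling and background step are unknown.

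Intensities were corrected with normexp (offset 50) and normalised by loess within arrays in limma 3.58.1 (R 4.3.3). Control spots and 228 outlier spots were left out. Probes well above background in the sample channel on at least 3 arrays were kept (40792 of 41006), and the brightest probe stood for a gene. Symbols came from a RefSeq table of GRCm38.p6 for 15303 of 41034 spots. Groups were compared with lmFit and eBayes, with Benjamini-Hochberg adjustment over 37049 genes. Between 95.9% and 99.6% of spots per array were well above background; precision is limited by how few arrays there are.

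Whether TB-TNF KO double arrays 1 and 2 were near-duplicates was judged by the SD of their difference in the sample channel over that in the reference channel. It was computed over all kept probes and, after the first values were seen, over probes with a mean log2 signal above 7, 8, 9 or 10 in both channels. The ratio was 0.951 over all probes with a signal in both channels on every array and 0.995, 1.03, 1.09 and 1.15 with these minimums, the lowest of the 15 pairs each time. All 5 versions led to the same choice, and the version over all kept probes is the one quoted with the results.

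The replicate numbers counted as pairing the samples, since deviations from the group means of same-numbered arrays correlated at 0.14, 0.52 and 0.62, each above 0.1. Unlike numbers correlated from -0.56 to 0.41; array 1 of TB-TNF KO double correlated more with B-TNF KO array 2, at 0.41, than with its own number, and the labels do not say what a number marks. The members, lists and tests were chosen with earlier results of these data known. Every member is named; members with an unadjusted p under 0.05, separate groups or several probes are given array by array, and genes of the other lists where their unadjusted p is under 0.05. Of the latter, 1 gene is not reported here. Figures were drawn with matplotlib 3.10.9.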

Additional observations from a re-analysis of the deposited data

How the results depend on the processing

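Under 22 alternatives, 10 of the 32 members kept the sign of their difference throughout. With the sample channel alone, Cxcl9, Ccr6 and Cxcr3 turned to 0.02, 0.05 and 0.08. The count of members called lower was 0 with 3 samples against 2, and 4 with the 6 arrays counted separately, 3 with the replicate block and 2 with the sample channel alone; called higher were 1, 1 and 1 there, against 0. At an unadjusted p under 0.05, 8 members were lower, against 5 with the scanner processed signals (10.5% of all genes) and 4 with arrays 1 and 2 only (7.13%). Higher by that rule were 2, against 1 with the mean of all probes (4.93% of all genes), 4 with the replicate block (7.72%), 1 with TB-TNF KO double arrays 1 and 2 left out (3.77%; chosen after seeing the data) and 1 to 4 with single replicates left out.

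Over all genes, 4 were called lower and 0 higher. The counts were 287 and 253 with the sample channel alone, 146 and 55 without saturated probes, 1733 and 537 with the 6 arrays counted separately, 2401 and 682 with the replicate block, 364 and 124 with a trended and robust spread, and 301 and 96 with array weights. Called lower were 2 with the mean of all probes, 1 with scanner processed signals, and 0 without background subtraction, with the authors' values, with arrays 1 and 2 only and with TB-TNF KO double arrays 1 and 2 left out. Leaving out single replicates gave 0 to 4. The ligand median of -0.02 was -0.13 with TB-TNF KO double arrays 1 and 2 left out, and ranged from -0.087 to 0.034 with single replicates left out. The receptor median of -0.03 was 0.078 with the sample channel alone. The causes were not tested. Leaving out array 3 of the second group left 1 sample there, assumed to vary like the other group.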
